A study of Schizosaccharomyces pombe with 40 samples.

Results

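The 9 genes described here encode the core of the fission yeast heat shock chaperone system. They were hsp90 (SPAC926.04c), hsp104 (SPBC16D10.08c), hsp16 (SPBC3E7.02c), ssa1 (SPAC13G7.02c), ssa2 (SPCC1739.13), hsf1 (SPAC2E12.02), mas5 (SPBC1734.11), sti1 (SPCC645.14c) and psi1 (SPCC830.07c), 9 of the 12684 features of the count table. The genes were picked by identifier and chosen on their levels in these same libraries, so their values are given as a description, with standard errors and without a test. The study asked how the snoRNA snR107 guides rRNA methylation and limits meiotic gene expression. It sequenced poly(A)+ RNA from haploid h- Schizosaccharomyces pombe cells. The tested strain carried snR107kloopmut, called kloopmut here, in which a short motif of the snoRNA kink-loop is altered, and it was compared with wt. The paper reports that this mutant also lost an rRNA methylation, had fewer free large ribosomal subunits and went through meiosis more slowly. Both strains were leu1-32 and carried pat1-L95G::kanR, an allele of the Pat1 kinase that the ATP analogue 3-MB-PP1 inhibits. Vegetative cells (V) grew in EMM minimal medium, cells without nitrogen (-N) were starved overnight, and meiosis was then started with 25 µM 3-MB-PP1 and followed for 1 to 8 h. Leucine and ammonium chloride were added together with the inhibitor, so the hours after -N combine Pat1 inhibition with refeeding, and the design cannot tell these apart. The meiosis was that of haploid cells of a single mating type, which is not a natural one. With 2 replicates of each strain at each stage there were 20 groups and 40 libraries.

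Heat shock chaperones bind unfolded proteins and keep them from aggregating. Hsf1, the heat shock factor, is the transcription factor that drives their genes, and it binds heat shock elements, which are inverted repeats of a GAA unit. Hsp70 proteins (Ssa1 and Ssa2) work in cycles started by J proteins (Mas5 and Psi1), Sti1 passes their clients to Hsp90, Hsp104 pulls proteins out of aggregates, and Hsp16 is a small heat shock protein that holds unfolded proteins. In fission yeast Mas5 and Ssa2 are also known to hold Hsf1 in check.

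The region before each gene was read first, because the members shared a short sequence there that their choice did not use. The head-to-head form of the heat shock element, GAANNTTC, was present in the 250 bases before the annotated start of 7 of the 9 genes, of 9 of 45 other chaperone genes, and of 9.45% of all 5112 windows of that length before protein-coding genes. The tail-to-tail form, TTCNNGAA, was found before 2 of the 9, before 8 of 45 other chaperone genes and in 8.35% of all windows. Elements of 3 units, which overlap both forms, stood before ssa1 and ssa2 and before 2 of 45 other chaperone genes. Of all windows 0.411% held one. TGACGT, the site of the stress factor Atf1, was found before ssa2 and in 5.52% of windows, and GTAAACA, a forkhead site, before hsp90 and in 14.8% of windows. All motifs were searched on both strands. The stretches that hold the heat shock elements are shown with 5 bases on either side, 5′ to 3′ along the gene's strand and with the matches in capitals, from the RefSeq reference of build ASM294v3:
hsp90 (I:3891184-3891201, minus strand): ttttgGAATGTTCgagtt
sti1 (III:1263656-1263673, minus strand): caaaaGAATCTTCgttat
ssa1 (I:2298005-2298058, minus strand): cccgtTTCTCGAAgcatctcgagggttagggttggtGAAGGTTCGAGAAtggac
ssa2 (III:2056979-2057001, plus strand): tttggGAAACTTCGAGAAccgta
mas5 (II:1081146-1081163, plus strand): gaaagGAAATTTCtcatc
psi1 (III:2195585-2195641, minus strand): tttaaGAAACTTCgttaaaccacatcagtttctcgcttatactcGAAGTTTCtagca
hsp16 (II:2661073-2661090, minus strand): tacgaGAAAATTCgagtc
The window before hsp104 and that before hsf1 held none of these letters. Apart from mas5, whose element lay 224 to 217 bases before the start, every match to a heat shock element lay between 102 and 46 bases before it. A match is a description of the sequence, and binding was not measured.

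**Figure D1:**
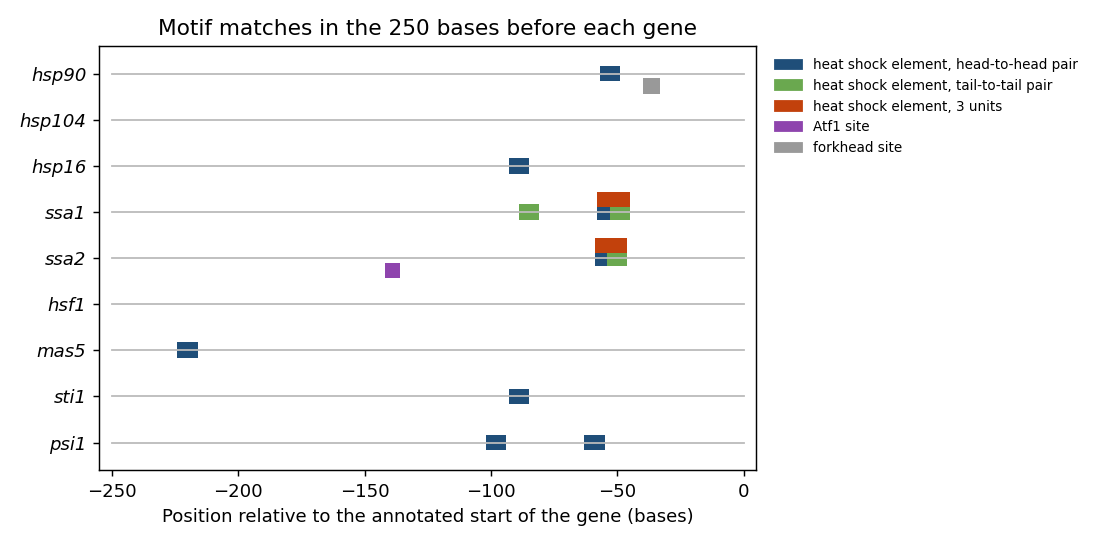
Positions of motif matches in the 250 bases before the annotated start of each of the 9 genes (horizontal axis, bases relative to the start, 1 row per gene). Bars are matches to heat shock elements in head-to-head, tail-to-tail and 3-unit form, to the Atf1 site and to the forkhead site; 7 of the 9 rows carry a head-to-head element and the rows of hsp104 and hsf1 are empty.

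The libraries held 22889781 to 35440184 counts, and the lowest count of a member in any library was 202 for psi1. Levels are given as RPKM, counts scaled by the length of the feature and by the size of the library after TMM scaling, and differences as fitted log2 differences ± SE from edgeR. The SE come from 1 fit in which all 20 groups share an estimate of the spread, so the spread of the 2 libraries of a group shows only in their own values. In bulk RNA fewer cells with a transcript cannot be told from less transcript per cell. With total counts in place of TMM the median of all features moved to 0.44 in kloopmut and 0.34 in wt for -N against V, and to -1.24 and -1.23 for 8 h against -N, so those changes are read relative to all features. The strand setting of the counting was not stated. Other features overlap none of hsp90 and hsp16 but 87.2% of ssa1, 83.4% of hsf1, 60.3% of hsp104 and 15.7% to 35.1% of the other 4 genes, mostly as antisense non-coding RNAs, and reads from those cannot be told apart. The coding sequences of ssa1 and ssa2 were 82.6% identical, with a longest shared run of 56 bases, so some reads may have been divided between them. The cells expressed the M-cell gene mfm1 at 31282 to 41154 RPKM in -N libraries, while the P-cell gene map2 stayed between 0.0819 and 6.22 RPKM over all libraries. map3, the other P-cell gene looked at, had 19.6 to 27.7 RPKM in -N libraries and up to 38.4 RPKM at 1 h, but other features overlap 99.83% of it, so that its reads cannot be assigned to it with certainty.

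In vegetative cells the messages of hsp90 and ssa2 were abundant, and 6 of the 9 messages were lower in nitrogen-starved cells of both strains. The 6 are those past the threshold used for all features, an adjusted p under 0.05. Of all features tested 27.1% in kloopmut and 26.5% in wt were called lower by it. For the 9 genes chosen this count is a description. ssa2, the more abundant of the Hsp70 pair, had 211 and 207 RPKM in -N kloopmut cells, against 1469 and 1317 RPKM in V kloopmut cells. In wt it had 226 and 197 RPKM in -N cells and 1901 and 2190 RPKM in V cells. The -N libraries lay far below the V libraries in either strain, and the fitted difference was -2.74 ± 0.14 in kloopmut and -3.27 ± 0.14 in wt. hsp90 had 296 and 261 RPKM in -N and 1105 and 900 RPKM in V kloopmut cells, and 358 and 333 RPKM in -N and 1463 and 1433 RPKM in V wt cells. Its difference, -1.85 ± 0.12 in kloopmut and -2.07 ± 0.13 in wt, was next in size. mas5 (-1.74 ± 0.11 and -1.57 ± 0.11), hsp104 (-1.49 ± 0.18 and -1.07 ± 0.18), psi1 (-1.17 ± 0.19 and -1.33 ± 0.19) and sti1 (-1.02 ± 0.17 and -1.38 ± 0.17) were also lower in kloopmut and in wt -N cells. The transcription factor gene hsf1 went the other way, with 47.6 and 48.9 RPKM in -N and 35.2 and 36.1 RPKM in V kloopmut cells, and 54.1 and 52 RPKM in -N and 29.2 and 33.8 RPKM in V wt cells. ssa1 and hsp16 differed from V cells by no more than 0.20 on the log2 scale in either strain, with SE of 0.19 to 0.21.

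At 1 h after inhibitor and refeeding the 9 messages went different ways. The comparisons of -N with V, of 1 h with -N and of 8 h with -N share the -N libraries. The J protein gene mas5 had 416 and 381 RPKM at 1 h in kloopmut, against 104 and 95.7 RPKM in -N cells. In wt it had 513 and 524 RPKM at 1 h and 115 and 115 RPKM in -N cells. The groups were well separated, with differences of 2.00 ± 0.11 in kloopmut and 2.17 ± 0.11 in wt. The other J protein gene, psi1, moved in the opposite direction, with 3.46 and 5.5 RPKM at 1 h against 23 and 26 RPKM in -N kloopmut cells, and 9.82 ± 0.376 RPKM (SD, n = 2) at 1 h against 22.6 and 24.5 RPKM in -N wt cells. ssa1 had 10.8 and 11.2 RPKM at 1 h against 67.3 and 70.4 RPKM in -N kloopmut cells, and 16.4 and 19.2 RPKM at 1 h against 61.8 and 57.4 RPKM in -N wt cells. For psi1 and ssa1 these were the lowest levels of the course. The disaggregase gene hsp104 (-1.51 ± 0.19 in kloopmut and -1.35 ± 0.18 in wt), hsp16 (-1.12 ± 0.22 and -0.85 ± 0.21) and hsf1 (-0.34 ± 0.10 in both) were lower as well. hsp90 stayed within 0.18 of its -N level on the log2 scale in both strains.

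A rise followed between 1 and 2 h that was sharp in wt for hsp90, hsp104, ssa1, ssa2, psi1 and sti1 and smaller in kloopmut. At 1 h the fitted strain differences ran from -1.13 ± 0.20 for psi1 to -0.14 ± 0.10 for hsf1, beside a median of 0.01 for all features. Those of hsf1 and sti1 (-0.31 ± 0.17) were under 2 SE, and with total-count scaling that of hsf1 was -0.02. At that hour the difference was -0.81 ± 0.22 for hsp16, -0.80 ± 0.13 for ssa2 and -0.63 ± 0.12 for hsp90. hsp90 had 710 and 656 RPKM in kloopmut cells at 2 h, against 2461 and 2412 RPKM in wt cells, where this was the highest level of the whole course. hsp104 had 15.6 and 18.1 RPKM in kloopmut against 88.6 and 91.3 RPKM in wt. Every kloopmut library lay below every wt library for both genes, and the strain difference was -1.83 ± 0.12 for hsp90 and -2.42 ± 0.19 for hsp104. The Hsp70 gene ssa1 had 27.5 and 37 RPKM in kloopmut against 243 and 232 RPKM in wt (-2.88 ± 0.20), and ssa2 had 532 and 581 RPKM in kloopmut against 1546 and 1458 RPKM in wt (-1.43 ± 0.13). The J protein gene psi1 had 12.2 and 16.8 RPKM in kloopmut and 100 and 103 RPKM in wt (-2.81 ± 0.20). The largest strain differences of the 2 h libraries thus belonged to ssa1, psi1 and hsp104, the genes with the lowest levels of the 9 at 1 h. sti1 had 196 and 179 RPKM in kloopmut and 511 and 504 RPKM in wt (-1.43 ± 0.17). hsp16, still at a low level, had 23.9 and 32.8 RPKM in kloopmut and 79.6 and 62.1 RPKM in wt (-1.32 ± 0.22). mas5, which had risen an hour earlier, had 361 and 329 RPKM in kloopmut and 666 and 646 RPKM in wt (-0.93 ± 0.11). The strain difference was smallest for hsf1 itself, at 44.6 and 37.4 RPKM in kloopmut and 61.4 and 58.7 RPKM in wt (-0.55 ± 0.10). Between 1 and 2 h the mean level of ssa1 multiplied by 2.93 in kloopmut and 13.4 in wt, that of psi1 by 3.23 and 10.3, that of hsp104 by 2.58 and 9.87, and that of hsp90 by 2.78 and 6.39. For sti1 the factors were 3.66 and 7.97, for ssa2 3.78 and 5.84, and for hsp16 1.23 and 1.75. For hsf1 they were 1.07 and 1.43, and for mas5 0.866 and 1.26. At an adjusted p under 0.05 all 9 were lower in kloopmut at 2 h. By that measure 14% of all 12019 features tested were called lower in kloopmut at 2 h and 15.5% higher. For the 9 this is a description of the genes chosen.

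**Figure D2:**
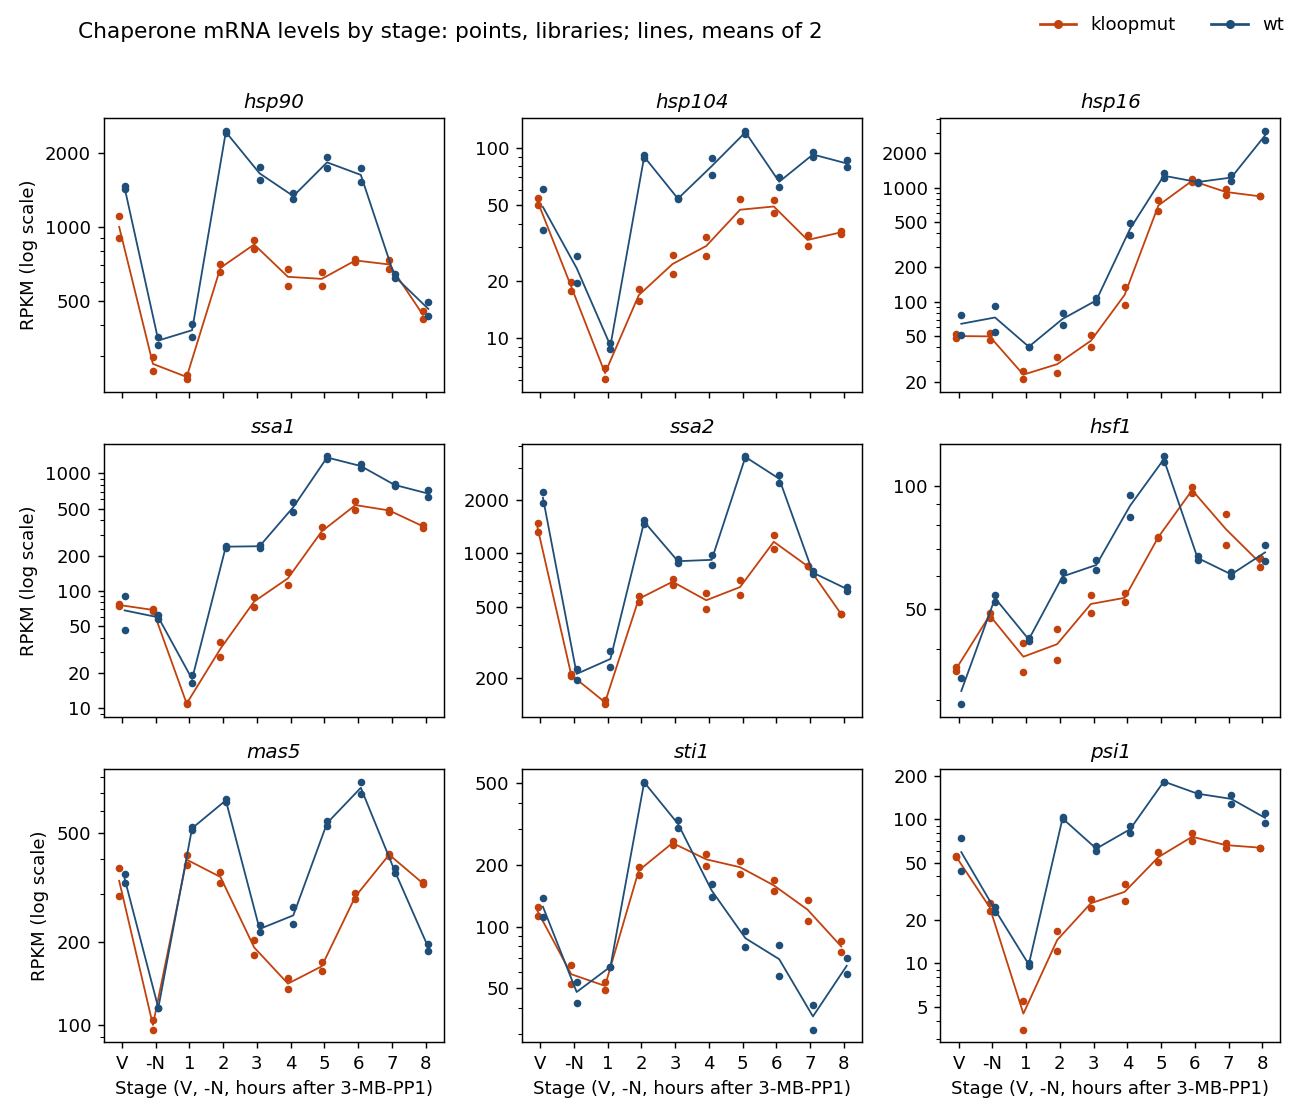
RPKM of each of the 9 genes (vertical log axis, its range set for each gene) in V, -N and at 1 to 8 h after 3-MB-PP1 (horizontal axis), with kloopmut in orange and wt in blue, a point for each library and a line through the means of 2. At 2 h the wt points of hsp90 stand at 2461 and 2412 RPKM and those of kloopmut at 710 and 656 RPKM, and hsp16 is highest at 8 h in wt.

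After 2 h the genes followed different courses. The Hsp70 genes showed another rise at 5 h in wt, to the highest level of their induced hours. ssa2 had 586 and 711 RPKM in kloopmut at 5 h, against 3491 and 3422 RPKM in wt, and ssa1 had 291 and 352 RPKM in kloopmut against 1334 and 1401 RPKM in wt. In kloopmut both genes were highest at 6 h, with 1055 and 1268 RPKM for ssa2 and 490 and 586 RPKM for ssa1, still below the wt libraries of 5 h. psi1 and hsp104 had the same peak hours as the Hsp70 genes. At 5 h psi1 had 50.2 and 58.8 RPKM in kloopmut against 182 and 182 RPKM in wt, and hsp104 had 41.1 and 53.6 RPKM in kloopmut against 119 and 123 RPKM in wt. For hsp104 the kloopmut levels at 5 and 6 h, 47.3 ± 8.84 and 49.2 ± 5.43 RPKM (SD, n = 2), did not differ beyond their spread. hsp90 had no such peak in kloopmut, where its means over 2 to 7 h stayed between 616 and 850 RPKM, while in wt they lay between 1337 and 2436 RPKM over 2 to 6 h. At 7 h its libraries came together, with 734 and 675 RPKM in kloopmut and 619 and 644 RPKM in wt. mas5 had a trough between its early and its later peak, at 4 h in kloopmut (135 and 148 RPKM) and 3 h in wt (217 and 230 RPKM). Its later peak came at 7 h in kloopmut (412 and 419 RPKM) and at 6 h in wt (691 and 768 RPKM), and at 8 h it was higher in kloopmut, at 324 and 330 RPKM against 197 and 185 RPKM in wt. hsf1 peaked at 6 h in kloopmut (95.8 and 99.1 RPKM) and at 5 h in wt (114 and 118 RPKM). The range of its means over the induced hours was the narrowest of the 9, at 2.55-fold in kloopmut and 2.76-fold in wt.

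The small heat shock protein gene hsp16 was late. It had 93.2 and 136 RPKM in kloopmut and 489 and 384 RPKM in wt at 4 h, a difference of -1.93 ± 0.22. At 6 h the strains overlapped on the TMM scale, at 1183 and 1119 RPKM in kloopmut and 1134 and 1110 RPKM in wt. With total-count scaling, an alternative chosen after seeing the data, its means at 6 h were 1128 RPKM in kloopmut and 633 RPKM in wt. The log2 strain differences of 6 h moved up by 0.80 under that scaling, and hsp104 turned to the higher in kloopmut, with means of 48.2 RPKM against 37.4 RPKM in wt (0.36 against -0.43 with TMM). hsp16 at 7 h (-0.42 with TMM, and means of 633 RPKM in kloopmut and 631 RPKM in wt by total counts) was the other strain difference that lost its direction, and at 1 to 5 h and 8 h the scaling turned none of the 9. The median shift was 0.62 at 5 h and 0.42 at 7 h. At 5 h the difference of hsf1 went from -0.63 to -0.01 and that of hsp16 from -0.87 to -0.24. By total counts ssa2 (-1.79), ssa1 (-1.47), psi1 (-1.12) and hsp104 (-0.73) stayed lower in kloopmut at 5 h. For hsp16 the strains parted again at 8 h, with 841 and 843 RPKM in kloopmut and 3152 and 2597 RPKM in wt, a difference of -1.77 ± 0.21. hsp16 was thus the only one of the 9 that was highest at the last hour in wt, and its kloopmut level at 8 h lay below that of 6 h. The widest ranges of means over the induced hours were those of hsp16, at 50.1-fold in kloopmut and 71.2-fold in wt, and of ssa1, at 48.9-fold in kloopmut and 76.9-fold in wt.

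The Hsp90 partner gene sti1 was higher in kloopmut over more hours than any of the other 8 genes. Among these, hsf1 was higher in kloopmut at 6 h (0.55 ± 0.10) and 7 h (0.37 ± 0.10), and mas5 at 8 h (0.78 ± 0.11). At 7 h hsp90 (0.16 ± 0.12), ssa2 (0.12 ± 0.13) and mas5 (0.19 ± 0.11) differed little. The level of sti1 was highest at 3 h in kloopmut, with 262 and 250 RPKM, and at 2 h in wt. From 4 h on sti1 was the higher in kloopmut, with 198 and 227 RPKM against 140 and 161 RPKM in wt at 4 h, 181 and 208 RPKM against 95.6 and 79.8 RPKM at 5 h, and 107 and 135 RPKM against 41.5 and 31.3 RPKM at 7 h. At 4 h the strain difference was 0.50 ± 0.16 and at 7 h it was 1.73 ± 0.17, with 1.15 ± 0.17 and 1.20 ± 0.17 in the hours between. The kloopmut libraries lay above the wt libraries at each of these hours. Averaged over 1 to 8 h sti1 was higher in kloopmut (0.36 ± 0.06), and the other 8 genes were lower. Of all features tested 39.3% were called higher and 38.5% lower in this average, at an adjusted p under 0.05. Its SE treat the hourly libraries as independent, and are too small if these came from 2 cultures per strain. The averaged difference was -1.50 ± 0.07 for ssa1, -1.39 ± 0.07 for psi1, -1.24 ± 0.06 for hsp104, -1.03 ± 0.08 for hsp16, -0.91 ± 0.05 for ssa2, -0.90 ± 0.04 for hsp90 and -0.55 ± 0.04 for mas5. For hsf1 it was -0.19 ± 0.04, and 0.09 with total-count scaling, so its direction depended on the scaling.

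Marker genes of meiotic stage were read in the same libraries. Other features overlap 90.42% of rec8, 81.74% of mei4 and 62.53% of isp3, so reads of those features may be part of their values. The meiotic cohesin gene rec8 was highest at 4 h in kloopmut (40.8 and 43.3 RPKM) and at 3 h in wt (41.7 and 37 RPKM). mei4, which encodes the forkhead factor of middle meiosis, had 59.1 and 70.4 RPKM in kloopmut and 172 and 170 RPKM in wt at 5 h, and 168 and 181 RPKM in kloopmut and 185 and 205 RPKM in wt at 6 h. The spore coat gene isp3 had 99211 and 117456 RPKM in kloopmut and 164345 and 150027 RPKM in wt at 8 h. At 2 h rec8 had 13.7 and 10.3 RPKM in kloopmut and 12.5 and 11.3 RPKM in wt, and those libraries overlapped. The part of stage in the chaperone differences was not tested. On the TMM scale peak hours were later in kloopmut for 8 of the 9 genes, and hsp16 peaked earlier there, at 6 h against 8 h in wt. With total-count scaling they were later in kloopmut for 6 of the 9, hsp104 peaked at 5 h in both strains, and mas5, at 1 h in kloopmut and 2 h in wt, joined hsp16 in peaking earlier. For mas5 the peak hour on the TMM scale also differed between the 2 kloopmut replicates, at 1 and 7 h.

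**Figure D3:**
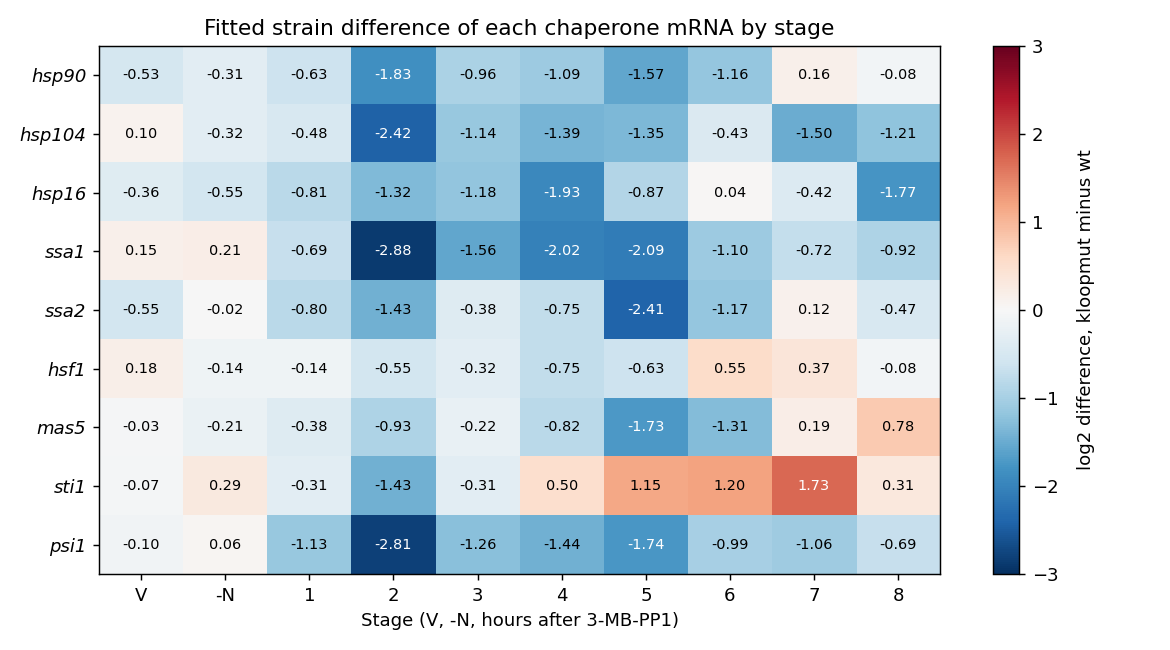
Fitted log2 difference, kloopmut minus wt, of each of the 9 genes (rows) in V, -N and at 1 to 8 h (columns), in color from -3 (blue) to 3 (red) with the value in each cell. The 1 h, 2 h and 3 h columns are negative in every row, the sti1 row turns positive from 4 h on, and the V and -N columns stay between -0.55 and 0.29.

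Before induction the strain difference of each gene was smaller than at 2 h. In V cells hsp90 (-0.53 ± 0.12) and ssa2 (-0.55 ± 0.13) had the largest differences, both lower in kloopmut, and for the other 7 the difference lay between -0.36 and 0.18. These 2 were past an adjusted p of 0.05, where 3.47% of all features tested were called lower in V cells. The wt libraries differed from each other in V cells. ssa1 had 74.6 and 77.3 RPKM in kloopmut against 46.4 and 90.3 RPKM in wt, and psi1 had 54.4 and 55.9 RPKM in kloopmut against 43.8 and 74.3 RPKM in wt. In -N cells the differences lay between -0.55 and 0.29. Together the 9 genes took 0.297% and 0.253% of all counts in -N kloopmut cells and 0.305% and 0.269% in -N wt cells. At 2 h they took 0.565% and 0.482% in kloopmut and 1.54% and 1.47% in wt, and at 5 h 0.694% and 0.796% in kloopmut and 1.67% and 1.63% in wt.

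At the end of the course the messages stood above their -N levels in both strains on the TMM scale. hsp16 was 16.9-fold higher than in -N cells in kloopmut (4.08 ± 0.24) and 39.4-fold in wt (5.30 ± 0.25). ssa1 was 5.16-fold higher in kloopmut (2.37 ± 0.20) and 11.3-fold in wt (3.50 ± 0.21). psi1 (1.37 ± 0.19 in kloopmut and 2.12 ± 0.19 in wt) came next in wt, and mas5 (1.71 ± 0.11 in kloopmut and 0.73 ± 0.11 in wt) in kloopmut. With total-count scaling, however, hsp90, hsf1 and sti1 were lower at 8 h than in -N cells in both strains, hsp104 and ssa2 lower in kloopmut and mas5 lower in wt. Only hsp16, ssa1 and psi1 were higher under both scalings in both strains.

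The rest of the chaperone network was followed through 45 other genes, found of 47 listed. These are not members, and for them edgeR's quasi-likelihood test with Benjamini-Hochberg adjustment over all features tested was used at an adjusted p under 0.05, with 2 libraries per group. Among those named here other features overlap the whole of hsp3105, hsp10, wis2, cns1 and xdj1, and 97.5% of ssz1, 88.55% of zuo1, 85.4% of hsp78, 75.6% of git7, 65.9% of hsp3102 and 53.1% of hsp9, so reads of those features may be part of their values. In -N against V cells 10 were higher and 24 lower in kloopmut, where 29% of all features tested were called higher and 27.1% lower. In wt 12 were higher and 22 lower, where 29.1% of all features were called higher and 26.5% lower. The 5 Hsp70 and Hsp110 genes found, of 6 listed, fell in both strains. bip1, the Hsp70 of the endoplasmic reticulum, had 101 and 95.5 RPKM in -N and 516 and 447 RPKM in V kloopmut cells, and 124 and 122 RPKM in -N and 461 and 532 RPKM in V wt cells (-2.29 ± 0.12, adjusted p = 2.02e-15, and -2.02 ± 0.12, adjusted p = 2.37e-14). The other large falls were that of hsp10, the mitochondrial co-chaperonin, in kloopmut (-2.01 ± 0.16, adjusted p = 4.03e-11) and that of wis2, a cyclophilin that works with Hsp90, in wt (-1.91 ± 0.14, adjusted p = 4.58e-12). The largest rises were those of the DJ-1 family gene hsp3105 (3.93 ± 0.22, adjusted p = 1.82e-14, in kloopmut and 3.87 ± 0.22, adjusted p = 1.62e-14, in wt) and of ubi4, which encodes polyubiquitin (1.13 ± 0.21, adjusted p = 3.96e-05, and 2.34 ± 0.21, adjusted p = 4.72e-10).

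At 1 h against -N 24 genes were higher and 10 lower in kloopmut, where 25.2% of all features tested were called higher and 24.1% lower. In wt 27 were higher and 9 lower, where 25.7% of all features were called higher and 26.7% lower. The Hsp70 and Hsp110 genes rose, 5 of 5 in each strain, as did the J protein genes found, 6 of 6 in each strain, 8 of 10 chaperonin genes in kloopmut and 9 of 10 in wt, and 4 of 6 Hsp90 co-chaperone genes in kloopmut and 6 of 6 in wt. Of the small and other heat shock genes 7 of 10 fell and 1 rose in each strain. Of 4 exchange factor genes none rose, and 2 fell in kloopmut and 1 in wt. Neither of the 2 endoplasmic reticulum genes passed the threshold, and 1 of 2 prefoldin genes fell in each strain. No test compared these groups with each other. sks2, the ribosome-associated Hsp70, had 1463 and 1223 RPKM at 1 h and 385 and 363 RPKM in -N kloopmut cells, and 1664 and 1700 RPKM at 1 h and 407 and 436 RPKM in -N wt cells (1.84 ± 0.12, adjusted p = 2.37e-13, and 2.00 ± 0.12, adjusted p = 4.34e-14). zuo1, its J protein partner on the ribosome, rose by 1.69 ± 0.12 in kloopmut (adjusted p = 9.15e-13) and 1.61 ± 0.12 in wt (adjusted p = 2.18e-12). hsp9, an Hsp12-like heat shock gene, had 25.3 and 36.1 RPKM at 1 h and 1446 and 2311 RPKM in -N kloopmut cells, and 19.8 and 24.9 RPKM at 1 h and 2255 and 1624 RPKM in -N wt cells (-5.94 ± 0.41, adjusted p = 8.41e-13, and -6.44 ± 0.42, adjusted p = 2.26e-13). hsp3102, of the DJ-1 family, changed by -2.94 ± 0.41 in kloopmut (adjusted p = 6.19e-07) and by -3.84 ± 0.44 in wt (adjusted p = 2.42e-08), with at most 5.76 RPKM in any of these libraries. Among the 9, mas5 went in the direction of sks2 and zuo1 at 1 h, and psi1, ssa1, hsp104 and hsp16 in that of hsp9.

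The 2 h strain difference was also looked for in the other chaperone genes, a comparison chosen after the levels had been seen. Of the 45, 19 were lower in kloopmut and 5 higher, beside the 14% and 15.5% of all features given for 2 h, with a median of -0.21 against 0.05 for all features. The group called lower held 4 of 6 Hsp90 co-chaperones, 3 of 5 Hsp70 and Hsp110 genes and both genes of the endoplasmic reticulum lectin and oxidoreductase group, cnx1 and pdi1, but 3 of 10 chaperonins and 2 of 6 J proteins. hsp78, the mitochondrial disaggregase, had 30.2 and 28.4 RPKM in kloopmut and 146 and 150 RPKM in wt (-2.34 ± 0.19, adjusted p = 6.5e-10). cnx1, calnexin, had 244 and 241 RPKM in kloopmut and 705 and 703 RPKM in wt (-1.54 ± 0.12, adjusted p = 4.32e-10). wis2 (-1.54 ± 0.14, adjusted p = 4.21e-09) and aha1, which activates the Hsp90 ATPase (-1.47 ± 0.11, adjusted p = 2.36e-10), were lower as well, both named after their values were seen. The ribosome-associated sks2 had 1426 and 1343 RPKM in kloopmut and 1335 and 1304 RPKM in wt, a difference of 0.07 ± 0.12 (adjusted p = 0.682). hsp9 was higher in kloopmut, at 155 and 273 RPKM against 35.7 and 89.4 RPKM in wt (1.77 ± 0.34, adjusted p = 0.000338), and so was the prefoldin gene pac10 (0.77 ± 0.23, adjusted p = 0.0124). In the fit of the 2 h libraries alone 11 of the 44 genes tested were lower and 1 higher.

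**Figure D4:**
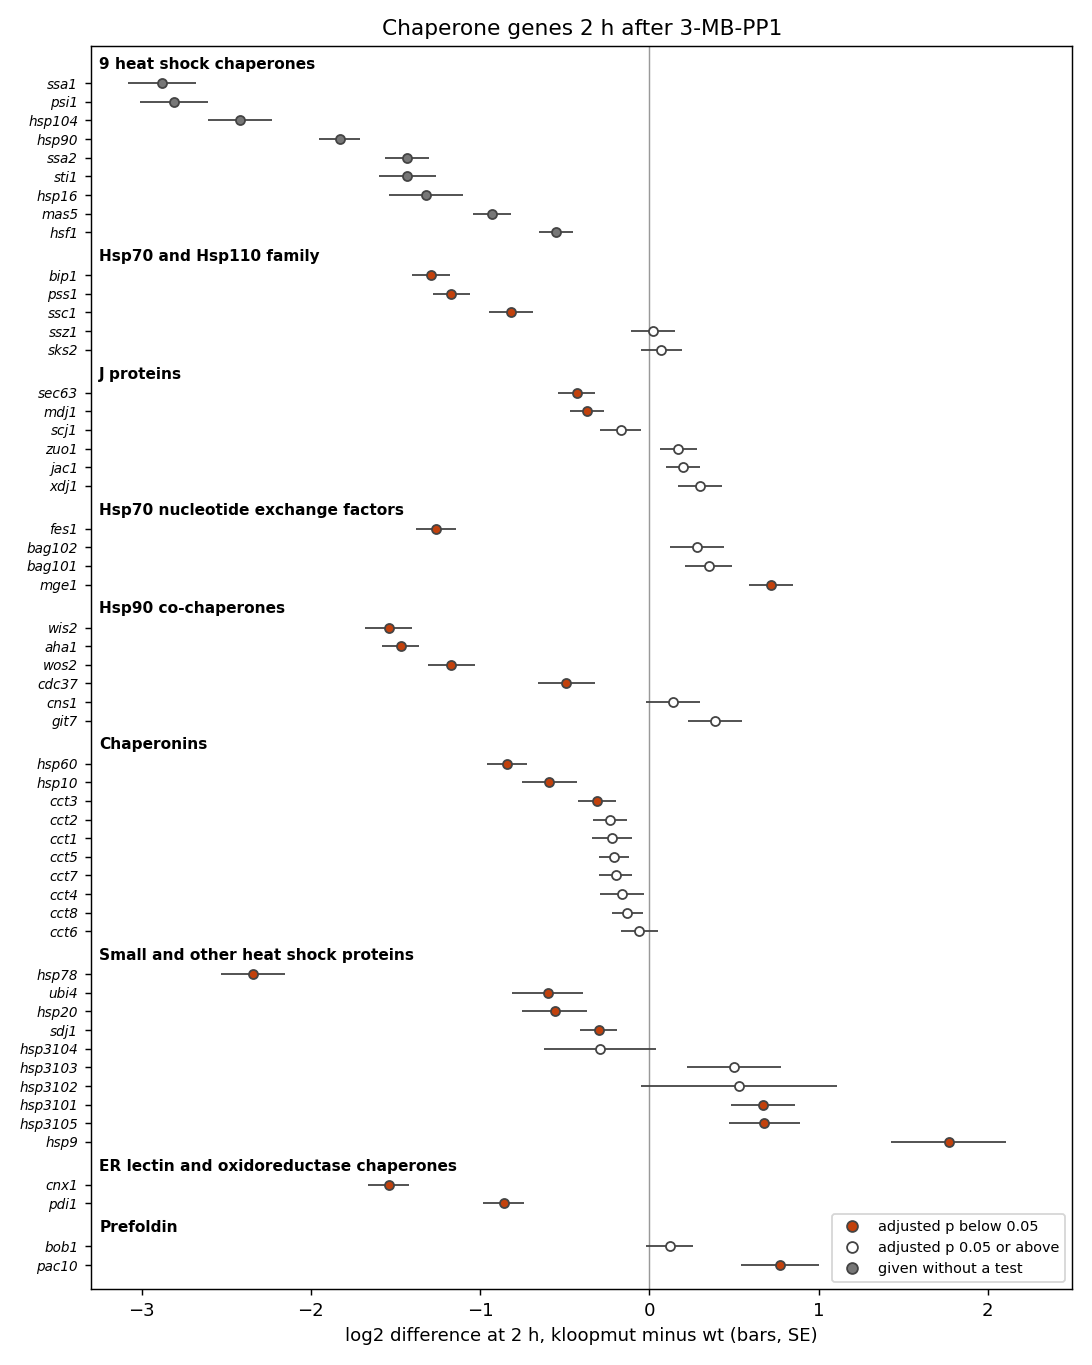
Log2 difference at 2 h, kloopmut minus wt, with SE bars (horizontal axis), for the 9 heat shock chaperones in grey, given without a test, and the 45 other chaperone genes by group (vertical axis). Filled orange points have an adjusted p below 0.05 and open points do not; 19 of the 45 lie below 0 past the threshold, hsp78 lowest at -2.34.

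Over the mean of 1 to 8 h the other chaperone genes were called in equal numbers in either direction, 21 higher and 21 lower in kloopmut, and 25 higher and 13 lower with total-count scaling. Of all features tested 39.3% were called higher and 38.5% lower. This fit treats the hourly libraries as independent, although they may come from 2 cultures per strain followed through the hours, and in that case its SE and adjusted p are too small. bip1 (-0.80 ± 0.04, adjusted p = 1.92e-16) and ubi4 (-0.77 ± 0.07, adjusted p = 1.49e-10) were lower. git7, a co-chaperone of Hsp90 (1.32 ± 0.06, adjusted p = 5.53e-17), and pac10 (1.04 ± 0.08, adjusted p = 4.03e-12) were higher. Of the Hsp90 co-chaperones 5 of 6 were higher, all but aha1, as sti1 was among the 9, and of the Hsp70 and Hsp110 genes 5 of 5 were lower, as ssa1 and ssa2 were. With total-count scaling the ribosome-associated sks2 and ssz1 were near 0 (-0.02 and -0.04). In V cells, where 2.47% of all features were called higher and 3.47% lower, 2 genes were higher in kloopmut, cns1 (0.73 ± 0.17, adjusted p = 0.0104) and ubi4 (0.73 ± 0.21, adjusted p = 0.0346), and 1 was lower, cnx1 (-0.47 ± 0.12, adjusted p = 0.0201). These calls were not stable, and their number changed when 1 replicate of a strain was left out. Such a fit keeps 1 library in a group, so it cannot show whether single libraries carried the calls. In -N cells, where 0.15% of all features were called higher and 0.383% lower, pdi1, a protein disulfide isomerase, was lower in kloopmut (-0.56 ± 0.12, adjusted p = 0.0284), and the call was lost whichever replicate was left out.

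At 8 h against -N 22 of the other genes were higher and 17 lower in kloopmut, where 34.4% of all features were called higher and 37.7% lower. In wt 23 were higher and 16 lower, where 32.6% of all features were called higher and 37.5% lower, while with total-count scaling the numbers were 6 higher and 31 lower in kloopmut and 6 higher and 32 lower in wt. The J protein gene xdj1 had 511 and 533 RPKM at 8 h and 19.9 and 17 RPKM in -N kloopmut cells, and 521 and 530 RPKM at 8 h and 17 and 13.9 RPKM in -N wt cells (4.82 ± 0.15, adjusted p = 2.32e-21, and 5.09 ± 0.15, adjusted p = 1.15e-21). bip1 rose by 3.64 ± 0.12 in kloopmut (adjusted p = 1.9e-20) and 2.84 ± 0.12 in wt (adjusted p = 2.93e-18), and rose with total-count scaling too (2.47 and 1.68). Lower at 8 h were hsp3105 in both strains (-2.16 ± 0.20, adjusted p = 1.55e-10, in kloopmut and -2.40 ± 0.20, adjusted p = 2.53e-11, in wt), git7 in kloopmut (-2.23 ± 0.17, adjusted p = 2.77e-12) and bag102, an exchange factor of Hsp70, in wt (-1.86 ± 0.17, adjusted p = 1.12e-10).

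The 9 courses were also set against each other over the 20 group means of log2(RPKM + 1), which share the same libraries. hsp104 and psi1 were the closest pair, with a Pearson r of 0.97, followed by ssa1 and psi1 at 0.93, hsp16 and ssa1 at 0.91 and hsp90 and ssa2 at 0.90. sti1 was farthest from the rest, with r between -0.21 (with hsp16) and 0.60 (with hsp90), and mas5 had its closest match in ssa2 at 0.51. Against the mean profile of the 9, r lay between 0.34 for sti1 and 0.93 for psi1. Among 708 other protein-coding genes that reached 1 RPKM in every group and had under 10% of their length overlapped, the 5 closest to that mean profile were atg9, a membrane protein of autophagy, at 0.919, zwf1, which encodes glucose-6-phosphate dehydrogenase, at 0.906, dsk2, a ubiquitin receptor, at 0.892, ssp2, the AMP-activated kinase, at 0.888, and cdc48, the segregase of ubiquitylated proteins, at 0.886. These are likenesses of level over 20 points and carry no test.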

How the data were processed

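The data were 40 poly(A)+ libraries from 2 strains at 10 stages. Whole-number counts of reads per annotated feature were deposited by the authors in 1 table, with no normalization and no pooling. Per the submitters' processing notes, reads were processed with bcl2fastq 2.20 and fastp 0.23.1, aligned with STAR 2.6.1d and counted with featureCounts of Subread 2.0.6. The genome release, the strand setting and the treatment of multiply mapped reads are not given in the sources used here. Column names stood 1 place to the right of their data and were realigned. Of 12684 features 12602 were found in the ASM294v3 annotation, 12594 of them with the same start and end.

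The tests were those of edgeR 4.0.16 under R 4.3.3. filterByExpr kept 12019 features and removed 665, TMM factors ran from 0.513 to 1.47, and 1 quasi-likelihood fit over all 20 groups left 20 residual degrees of freedom. Tests were two-sided with Benjamini-Hochberg adjustment over all features, and calls were made at an adjusted p under 0.05. The fit was tested on simulated data. RPKM used the feature lengths of the table and TMM library sizes. DESeq2 1.42.0, total-count scaling, no filter, replicate blocks, protein-coding features alone, a log2 limit of 1, fits of the compared groups alone and each replicate of a strain left out were the alternatives.

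The members and the gene lists were chosen with earlier results of these data known. Named by rule were, in each comparison, the 2 largest rises and 2 largest falls of other chaperone genes past the threshold, with 1 RPKM in a compared group and the same sign in all comparisons of libraries, and the 5 genes most like the members' mean profile. Of the listed genes, lhs1 and caj1 were not found. The growth protocol describes aliquots taken each hour, but the labels do not say that a replicate number is 1 culture at all stages. Same-numbered libraries correlated in their deviations from the group means with r of -0.0589 to 0.269 in wt, -0.365 to 0.522 in kloopmut and -0.0793 to 0.202 between strains, so the numbers were not taken to pair the samples.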

Additional observations from a re-analysis of the deposited data

Results flagged for a closer look

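Both strains were compared for members and named genes whose change went opposite ways in both replicates, each 1 h library being set against the -N library of the same number, a pairing that the labels do not state. At 1 h against -N, ssa2 changed by -0.57 and -0.44 on the log2 scale in kloopmut and by 0.03 and 0.52 in wt, a difference between strains of -0.78. At the same step sti1 changed by -0.27 and -0.09 in kloopmut and by 0.25 and 0.59 in wt, a difference of -0.60, but without the pairing its kloopmut libraries overlapped, at 53.6 and 49 RPKM at 1 h and 64.6 and 52.3 RPKM in -N cells. The difference was not tested in either case, and with 2 replicates per strain such a split can arise without one. The libraries compared share the refeeding and the inhibitor.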

How the results depend on the processing

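With 2 libraries per group, the counts of other chaperone genes called in V and -N cells rest on few libraries, and the other counts were within 1.5 times of the main count under every alternative that keeps the threshold alone, except for 2 h in the fit of the compared groups alone, where 12 were called against 24. The 2 h comparison and its alternatives were chosen after seeing the data. Leaving out 1 replicate of a strain gave 0 to 8 calls for the strains in V cells and 0 to 0 in -N cells (main counts 3 and 1, and 5 to 14 genes at an unadjusted p under 0.05). The fit of the compared groups alone gave 0 in V and 0 in -N cells (4 and 8 at an unadjusted p under 0.05), DESeq2 gave 4 and 2, and total-count scaling 3 and 0 (7 unadjusted in -N). A log2 difference of at least 1 as a further limit left 0 in V, 0 in -N, 2 over the mean of 1 to 8 h, 9 at 2 h, 15 in kloopmut and 16 in wt for -N against V, 13 and 15 for 1 h against -N, and 21 and 19 for 8 h against -N.

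Total-count scaling split the calls into 25 higher and 13 lower over the mean of 1 to 8 h (main 21 and 21), 19 and 18 in kloopmut and 18 and 16 in wt for -N against V (main 10 and 24, 12 and 22), 15 and 11 in kloopmut and 20 and 13 in wt for 1 h against -N (main 24 and 10, 27 and 9), and 6 and 31 in kloopmut and 6 and 32 in wt for 8 h against -N (main 22 and 17, 23 and 16). It turned the direction of hsf1 over the mean of 1 to 8 h (0.09), and at 8 h against -N of hsp90 (-0.51), hsp104 (-0.22), ssa2 (-0.04), hsf1 (-0.74) and sti1 (-0.73) in kloopmut and of hsp90 (-0.73), hsf1 (-0.78), mas5 (-0.43) and sti1 (-0.73) in wt. No other setting turned round a named gene, or a member whose difference was over 2 SE. With the replicate block 4 genes were called in V cells and 1 in -N cells, 42 over the mean of 1 to 8 h and 24 at 2 h, and the replicate block changed no count by over 1.5 times, nor did the replicate block by culture. Depth did not limit the members, whose lowest count was 202.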
